A study of Homo sapiens with 6 samples.

Results

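The genes described here are read out by 8 probes, of the 47231 on the array, listed for 7 genes of the integrated stress response and of growth arrest. They were chosen by name: TRIB3 (ILMN_1787815), ATF3 (ILMN_2374865), DDIT3 (ILMN_1676984), ASNS (ILMN_1796417), CDKN1A (ILMN_1784602 and ILMN_1787212), GDF15 (ILMN_2188862) and TXNIP (ILMN_1697448). The pairing of each probe with its gene is that of this list. The deposited files hold no gene names and the pairing was not checked against an annotation of the array, so each gene name below stands for the probe listed for it. RNA came from SKBR3, an established human breast cancer cell line with an amplified HER2 (ERBB2) gene, grown in vitro. One group of 3 arrays carried RNA of cells overexpressing CDCP1, a transmembrane glycoprotein that SRC family kinases phosphorylate. The other group of 3 arrays carried RNA of control cells, whose titles name GFP, a fluorescent protein. The labels and title, the sources used here, do not say how the overexpressing cells were made or whether a group is 1 clone or a pool. Both groups share the parental line, and no drug or time point is named for either. The comparison asks how raised CDCP1 alters the transcripts of a HER2-driven line. The overexpression label itself was not checked, since no probe is known here to measure CDCP1.

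In the integrated stress response, kinases that sense amino acid shortage, unfolded protein, viral RNA or heme shortage phosphorylate the translation factor eIF2. General translation falls, while the transcription factor ATF4 is translated more and switches on genes of amino acid supply and further transcription factors. ASNS, ATF3, DDIT3 and TRIB3 are classical ATF4 targets, and GDF15 is a secreted protein that the same stress induces. CDKN1A encodes p21, an inhibitor of cyclin-dependent kinases that holds cells in growth arrest. TXNIP encodes an arrestin-like protein that binds thioredoxin and restrains glucose uptake, and its gene is switched on by the glucose-sensing factor MondoA. In HER2-amplified cells the PI3K and AKT pathway is active, and AKT is known to phosphorylate p21.

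The 5′ flanking sequences of 3 of these genes are shown because the probes listed for them differed between the groups, ATF3 upward and ASNS and TXNIP downward. Each also held a motif named below. A CDKN1A probe was called lower too, but the only CDKN1A window held none of these motifs and is not shown. Those of ASNS and TXNIP carry elements by which amino acid shortage and glucose are known to reach them, and that of ATF3 is set beside them. The ATF3 sequence lies at a start far upstream of the other annotated ATF3 start in the table, and its marked motifs are letter matches only. RefSeq promoter windows on GRCh38.p14 matched all 7 genes. The 250 bases before each annotated start were searched on both strands. The capitals mark TGATGNAA, the core of the C/EBP-ATF response element through which ATF4 acts, in the ASNS and ATF3 sequences. They also mark GTTACA, the second nutrient-sensing element of ASNS, in the ASNS sequence, and TGACATCA, a variant of the cAMP response element, in the ATF3 sequence. In the TXNIP sequence they mark CACGNG, 5 bases of any kind and CACGNG again, a tandem arrangement known as the carbohydrate response element. No marked motif overlaps another. Each of these genes had 2 windows, of which the one that held a marked motif is shown, and the other held none. The sequences lie at chr7:97872409-97872658 on the minus strand for ASNS, chr1:212565157-212565406 on the plus strand for ATF3 and chr1:145996580-145996829 on the minus strand for TXNIP.
ASNS: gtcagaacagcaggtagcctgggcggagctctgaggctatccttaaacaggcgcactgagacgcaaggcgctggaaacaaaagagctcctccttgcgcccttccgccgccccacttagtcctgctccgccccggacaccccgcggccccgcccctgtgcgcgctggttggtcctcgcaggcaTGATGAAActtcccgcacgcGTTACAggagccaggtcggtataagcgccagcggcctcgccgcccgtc
ATF3: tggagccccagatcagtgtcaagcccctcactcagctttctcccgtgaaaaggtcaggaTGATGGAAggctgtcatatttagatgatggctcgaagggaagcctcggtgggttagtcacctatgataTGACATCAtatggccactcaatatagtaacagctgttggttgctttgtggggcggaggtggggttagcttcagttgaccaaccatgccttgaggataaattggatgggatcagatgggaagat
TXNIP: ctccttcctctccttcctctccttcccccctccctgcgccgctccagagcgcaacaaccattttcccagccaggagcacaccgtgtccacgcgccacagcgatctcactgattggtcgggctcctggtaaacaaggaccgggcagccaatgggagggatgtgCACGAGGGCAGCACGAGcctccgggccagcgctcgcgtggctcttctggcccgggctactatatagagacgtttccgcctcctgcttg

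The ASNS window held TGATGAAA at 68 to 61 bases before the start, and the ATF3 window held TGATGGAA at 191 to 184 bases before its start. TGATGNAA was present in 3.14% of the 35116 RefSeq windows of the same length, which include several windows for some genes, and GTTACA in 5.59%. The 3 windows of TRIB3 overlap and held the same single GTTACA. TGACATCA was present in 2.37% of windows. The tandem element of TXNIP, at 88 to 72 bases before the start, was present in 16 of the 35116 windows, or 0.0456%. The endoplasmic reticulum stress element, CCAAT followed after 9 bases by CCACG (0.074% of windows), did not occur in any window of the 7 genes, which says only that these letters are not in the stretches searched. The ATF3 probe and the ASNS probe, whose genes share TGATGNAA in these windows, changed in opposite directions, as described next. Whether these letters act on either transcript here was not tested.

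**Figure D1:**
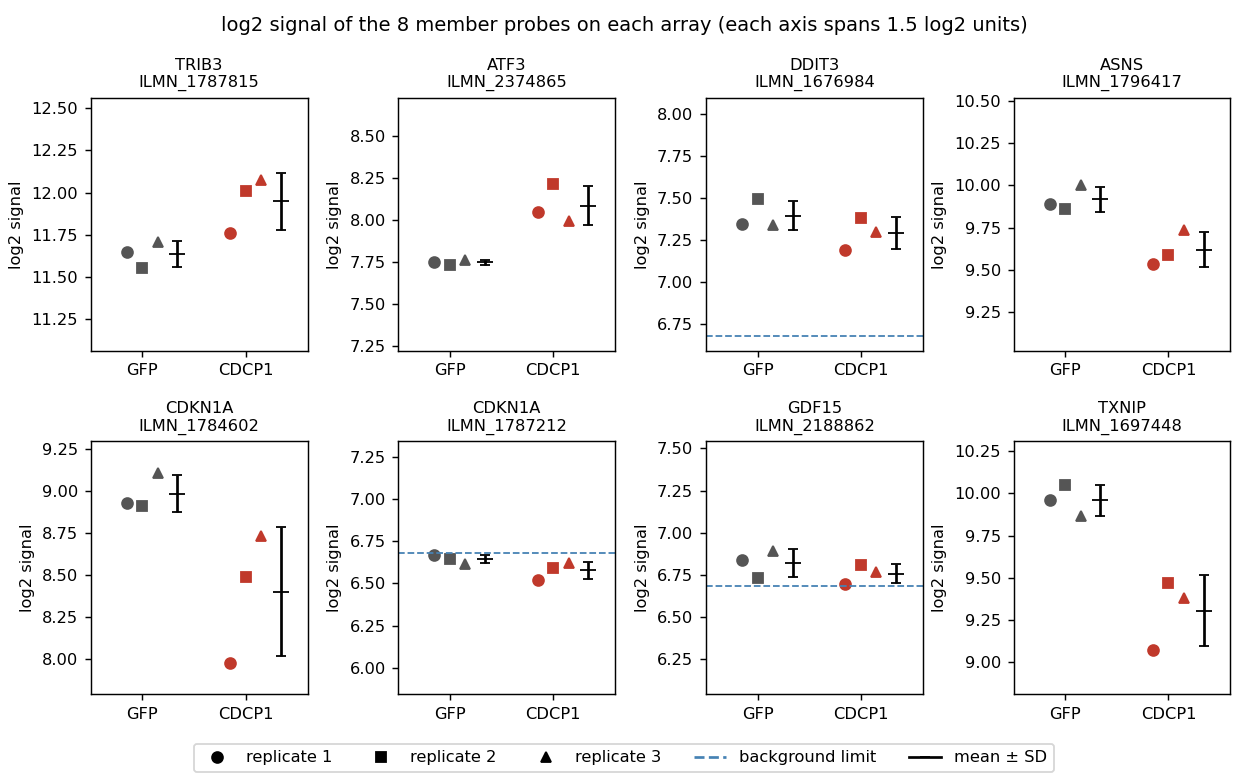
Log2 signal of each member probe (vertical axes, all of equal span but centred on the probe) on the 3 GFP and 3 CDCP1 arrays. Symbols are single arrays, bars are the mean ± SD of 3, and the dashed line is the background limit of 6.68. The ATF3 and TRIB3 arrays of the CDCP1 group lie above all control arrays, the ASNS, CDKN1A (ILMN_1784602) and TXNIP arrays lie below them, and the second CDKN1A probe lies under the limit on all 6 arrays.

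Cells labelled as overexpressing CDCP1 had less TXNIP, CDKN1A and ASNS signal and more ATF3 signal than the control, while TRIB3, DDIT3 and GDF15 did not pass the test. Only TXNIP was called in all 14 alternative settings of the processing. The call was lost in 4 of them for ATF3, 7 for CDKN1A and 9 for ASNS. A log2 change below is the mean of the 3 CDCP1 arrays minus the mean of the 3 GFP arrays, tested in limma over 31511 probes above background, with Benjamini-Hochberg adjustment and a threshold of 0.05. Of the 8 probes, 7 were tested, each above background on all 6 arrays, and the second CDKN1A probe was not above background on any. Of the 7, 1 was called higher and 3 were called lower. Of all tested probes 5.26% were called, 2.61% higher and 2.64% lower. Bright probes were called more often: with the tested probes divided by mean signal into 3 bands of equal size, 11.8% were called in the brightest band, which held 5 of the 7 members and all 4 of those called. The 3 CDCP1 arrays did not overlap the 3 controls for 5 of the 7 members, and for 22.0% of all tested probes. The median absolute log2 change was 0.31 over the 7 tested members and 0.067 over all tested probes. The members had been chosen with results of these data known, so these counts are a description. The titles number the arrays of a group as experiments (exp1 to exp3) without saying whether each was its own culture, so the p-values rest on a spread between arrays that may be technical. In RNA of whole cultures, a change in every cell and a change in some of the cells cannot be told apart.

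**Figure D2:**
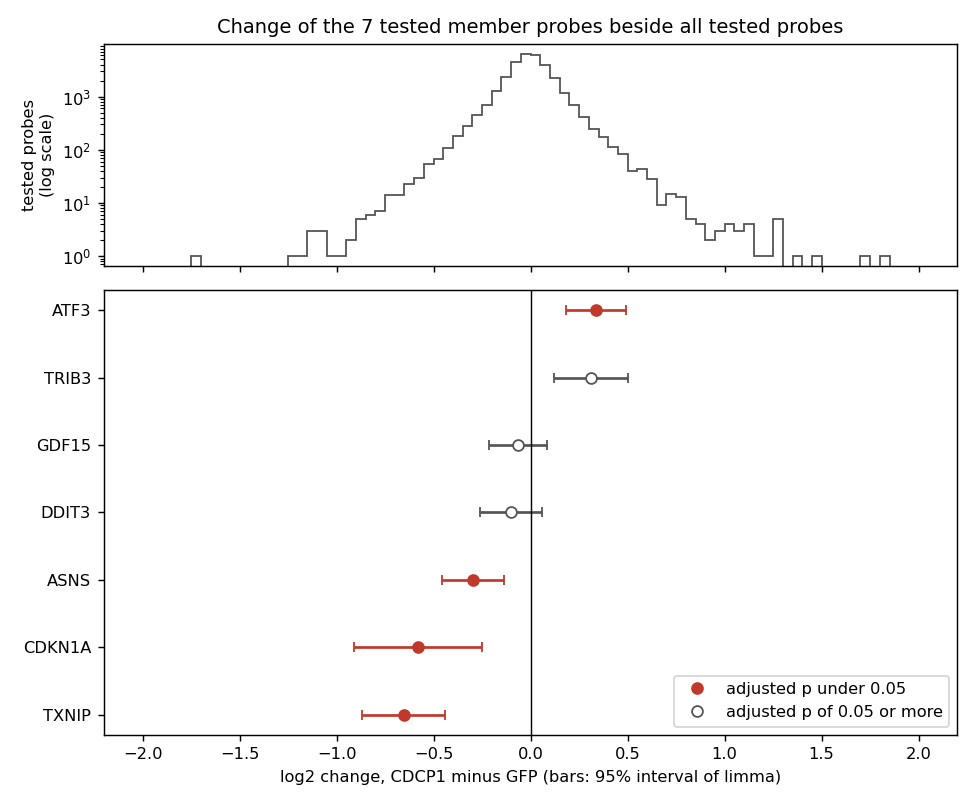
Log2 change, CDCP1 minus GFP (horizontal axis), of all tested probes (upper panel, number of probes on a log axis) and of the 7 tested member probes (lower panel), with the 95% intervals of limma. Filled points passed an adjusted p of 0.05. TXNIP at -0.65 and CDKN1A at -0.58 lie farthest from 0 among the members, and the intervals of DDIT3 and GDF15 include 0.

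CDCP1 replicate 1 differed most from the other arrays of its group, with an SD of 0.180 over the tested probes against the mean of the other CDCP1 arrays. The corresponding SD was 0.126 for replicate 2, 0.138 for replicate 3, and 0.0989 to 0.116 for the controls. Among the members it was the lowest CDCP1 array for 7 of the 8 probes, all except ATF3. The change of each tested member is therefore also given without it. Array weights estimated in limma gave it a weight of 0.381, and 5 of the 7 tested members were then called, TRIB3 in addition to the 4 named above. Calls rose over the whole array too, to 2611 of the 31511 tested probes from 1657 without weights.

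Among the ATF4-induced transcription factors, ATF3 rose. ATF3 is a stress-inducible member of the ATF/CREB family that can repress or activate its targets, and amino acid shortage and DNA damage are among its inducers. The log2 signal of its probe was 7.75, 7.73 and 7.76 on the GFP arrays and 8.05, 8.21 and 7.99 on the CDCP1 arrays. All 3 CDCP1 arrays lay above all controls, with a gap of 0.23 between the groups. The mean rose from 7.75 ± 0.014 (SD, n = 3) to 8.08 ± 0.12 (SD, n = 3), or 1.26-fold. The log2 change of 0.34 had an SE of 0.070 and a 95% interval from 0.18 to 0.49 (limma adjusted p = 0.0188). A change of at least this size was seen for 3.75% of the tested probes. The control arrays agreed unusually closely, since 96.8% of tested probes had a larger SD in the controls. Without CDCP1 replicate 1 the log2 change was 0.35 (limma adjusted p = 0.0131). Without CDCP1 replicate 2, the highest array, it was 0.27 and no longer called (limma adjusted p = 0.0805), and the call was also lost without GFP replicate 1, 2 or 3 (adjusted p = 0.0715, 0.0847 and 0.0813).

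DDIT3 did not pass the test, and its mean was lower in the CDCP1 cells. It encodes CHOP, a transcription factor that ATF4 induces and that promotes cell death when stress persists. Its probe read 7.35, 7.49 and 7.34 on the GFP arrays and 7.19, 7.38 and 7.30 on the CDCP1 arrays. The groups overlapped, and the highest array was a control. The means were 7.39 ± 0.086 (SD, n = 3) and 7.29 ± 0.094 (SD, n = 3), a log2 change of -0.10 with an SE of 0.072 and a 95% interval from -0.26 to 0.057 (limma adjusted p = 0.567). On the linear scale of the deposited signal, background included, the interval runs from 0.834 to 1.04 times the control level. With a background treatment that expands dim differences (normexp with an offset of 50), followed by quantile normalization, the log2 change was -0.14. Below, normexp stands for both steps. Without CDCP1 replicate 1 the log2 change of DDIT3 was -0.054.

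TRIB3 lay above the controls on every CDCP1 array without passing the test. It encodes a pseudokinase that ATF4 and CHOP induce, and that binds ATF4 and AKT. Its probe read 11.65, 11.55 and 11.71 on the GFP arrays and 11.76, 12.01 and 12.07 on the CDCP1 arrays. The groups were separated by a gap of only 0.054, between GFP replicate 3 and CDCP1 replicate 1. The log2 change of 0.31, or 1.24-fold, had an SE of 0.086 and a 95% interval from 0.12 to 0.50 (limma adjusted p = 0.0642), and the SD was 0.079 in the controls and 0.17 in the CDCP1 group (n = 3 each). Without CDCP1 replicate 1 it was called, with a log2 change of 0.41 (limma adjusted p = 0.00438). It was also called after cyclic loess between arrays (0.32, adjusted p = 0.0413) and with array weights (0.35, adjusted p = 0.00847). It was not called in the other 11 of 14 alternative settings, among them the removal of GFP replicate 1, 2 or 3 (adjusted p = 0.156, 0.235 and 0.137) and of CDCP1 replicate 2 or 3 (adjusted p = 0.212 and 0.156).

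ASNS, the metabolic gene of the set, fell. It encodes asparagine synthetase, which makes asparagine from aspartate and glutamine. Its probe read 9.89, 9.86 and 10.00 on the GFP arrays and 9.53, 9.59 and 9.73 on the CDCP1 arrays, with no overlap and a gap of 0.13. The mean fell from 9.92 ± 0.076 (SD, n = 3) to 9.62 ± 0.10 (SD, n = 3). The log2 change of -0.30 had an SE of 0.073 and a 95% interval from -0.46 to -0.14 (limma adjusted p = 0.0385), which leaves 0.813 of the control level. The call did not withstand the removal of most single arrays. Without CDCP1 replicate 1 the log2 change was -0.26 (limma adjusted p = 0.0562), without CDCP1 replicate 2 -0.28 (adjusted p = 0.137), and without GFP replicate 1, 2 or 3 the adjusted p was 0.0997, 0.0901 and 0.187. It was also not called with all probes tested (adjusted p = 0.0597), with normexp (0.0868), with an intensity trend and robust variances (0.0601) or with experiment numbers as a replicate block (0.0506).

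The change of ASNS ran against that of ATF3 and against the values of TRIB3, although all are ATF4 targets. The difference between 2 probes on the same array is not altered by a shift of a whole array, and only its change between groups can be read, since probes differ in brightness for a given amount of RNA. TRIB3 minus ASNS was 1.76, 1.69 and 1.70 on the GFP arrays and 2.22, 2.42 and 2.34 on the CDCP1 arrays. It thus moved by 0.61 on the log2 scale, and the lowest CDCP1 array stood well above the highest control. ATF3 minus ASNS moved by 0.64, from between -2.24 and -2.13 in the controls to between -1.74 and -1.38 in the CDCP1 group. ATF3 minus DDIT3 moved by 0.44, from between 0.24 and 0.42 to between 0.69 and 0.86. In each of these 3 differences all CDCP1 arrays lay above all controls. For the pairs with ASNS this could not be otherwise. TRIB3 and ATF3 lay above, and ASNS below, all controls on every CDCP1 array. The pairs were chosen after the values had been seen, so these differences are a description, with no test. Without CDCP1 replicate 1, an alternative added after seeing the data, they moved by 0.66, 0.61 and 0.41.

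**Figure D3:**
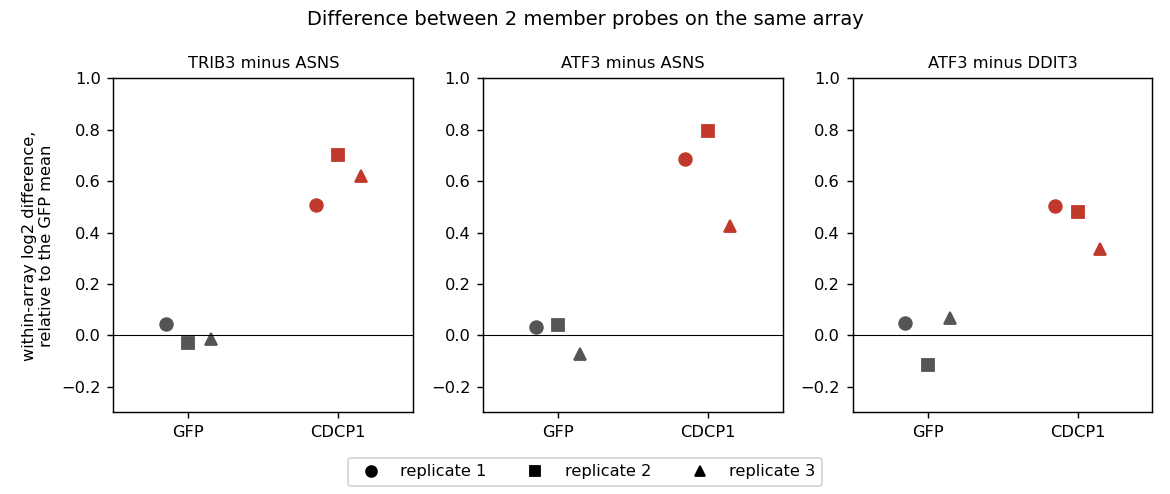
Difference in log2 signal between 2 member probes on the same array, relative to the mean of the GFP arrays (vertical axis), for 3 pairs of probes. Symbols are single arrays. All 3 CDCP1 arrays lie above all 3 GFP arrays in each panel, which for the pairs with ASNS follows from the single probes. The mean moves by 0.61 for TRIB3 minus ASNS, 0.64 for ATF3 minus ASNS and 0.44 for ATF3 minus DDIT3.

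GDF15, the secreted factor of the set, was close to background in both groups. GDF15 is a distant member of the TGF-β family, known as a circulating sign of cellular stress, and its receptor GFRAL is a brainstem protein. Its probe read 6.84, 6.73 and 6.89 on the GFP arrays and 6.69, 6.81 and 6.77 on the CDCP1 arrays, against a background limit of 6.68. The groups overlapped, and the log2 change of -0.065 had an SE of 0.067 and a 95% interval from -0.21 to 0.083 (limma adjusted p = 0.741). Differences of so dim a probe are compressed, so that a change in the transcript could be larger than this interval shows. With normexp it was -0.10, and it was -0.033 without CDCP1 replicate 1.

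CDKN1A fell, but unevenly. Its brighter probe, ILMN_1784602, read 8.93, 8.91 and 9.11 on the GFP arrays and 7.98, 8.49 and 8.73 on the CDCP1 arrays. The CDCP1 arrays spread over 0.75, from far below the controls for replicate 1 to 0.18 below the lowest control for replicate 3. The mean fell from 8.98 ± 0.11 (SD, n = 3) to 8.40 ± 0.38 (SD, n = 3), and only 0.689% of tested probes had a larger SD in the CDCP1 group. The log2 change of -0.58 had an SE of 0.15 and a 95% interval from -0.91 to -0.25 (limma adjusted p = 0.0491), which leaves 0.668 of the control level. Without CDCP1 replicate 1 the log2 change was -0.37 (limma adjusted p = 0.0212), and without CDCP1 replicate 3 it was -0.75 (adjusted p = 0.00763). It was no longer called without CDCP1 replicate 2 (-0.63, limma adjusted p = 0.112) or without GFP replicate 1, 2 or 3 (-0.61, -0.62 and -0.52, adjusted p = 0.115, 0.123 and 0.206). The same held with all probes tested (adjusted p = 0.145), with only probes above background on all 6 arrays tested (0.0531) and with an intensity trend and robust variances (0.126). The other probe listed for CDKN1A, ILMN_1787212, was not above background on any array, with values between 6.52 and 6.67, so it neither repeats nor contradicts this change.

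TXNIP showed the largest change of the 7 tested members and was called in all 14 alternative settings run for it. Its probe read 9.96, 10.05 and 9.87 on the GFP arrays and 9.07, 9.47 and 9.38 on the CDCP1 arrays. Every CDCP1 array lay below every control, with a gap of 0.40 between the groups. The mean fell from 9.96 ± 0.092 (SD, n = 3) to 9.31 ± 0.21 (SD, n = 3), a log2 change of -0.65 with an SE of 0.098 and a 95% interval from -0.87 to -0.44 (limma adjusted p = 0.00371). This leaves 0.635 of the control level, and only 58 other tested probes had a change as low or lower. Without CDCP1 replicate 1, the lowest array, the log2 change was -0.54 (limma adjusted p = 0.0011). Over the 14 alternatives the adjusted p ran from 0.000891 to 0.0276.

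**Figure D4:**
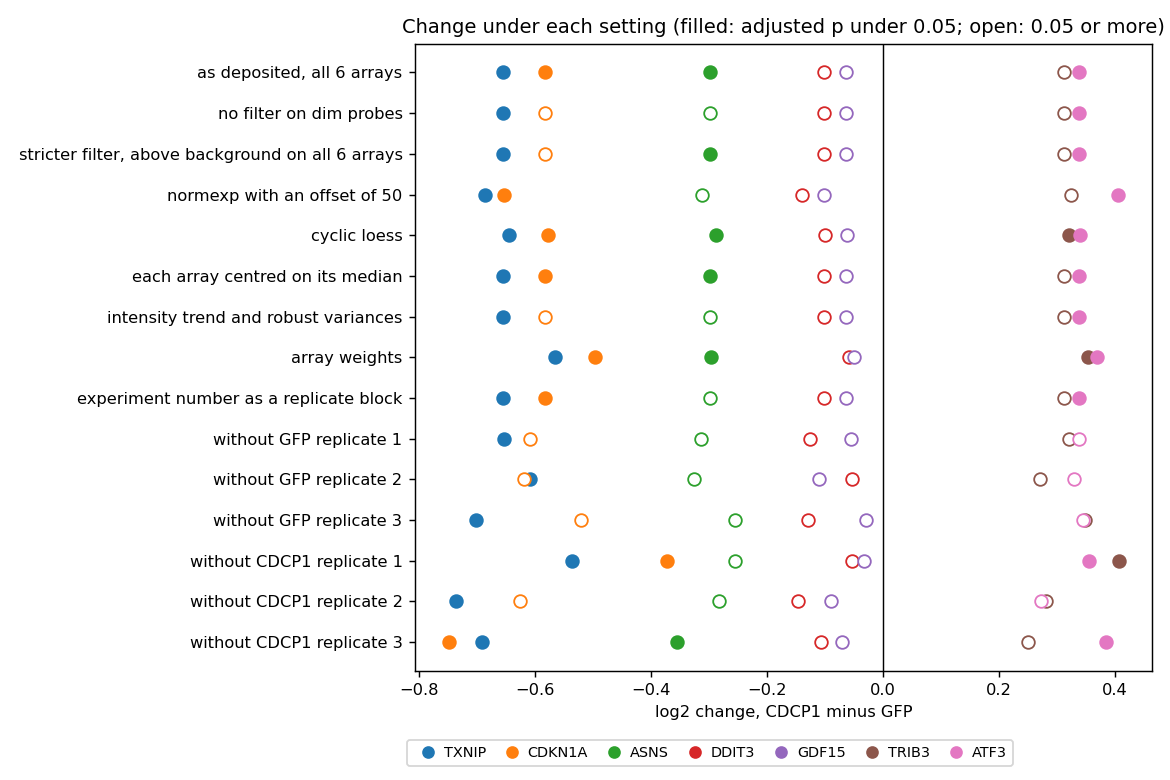
Log2 change, CDCP1 minus GFP (horizontal axis), of the 7 tested member probes under the settings named on the vertical axis. Filled points passed an adjusted p of 0.05 in limma. The setting named normexp also included quantile normalization. Every probe kept its sign under every setting shown, although the filters, the variance model and the replicate block cannot alter a log2 change. TXNIP was called throughout, and DDIT3 and GDF15 were never called.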

How the data were processed

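Total RNA from 6 SKBR3 samples was labelled with biotin and read on Illumina bead arrays of 1 slide. The authors read them with GenomeStudio, per the submitters' processing notes. The values the authors deposited are log2 signals already brought to nearly the same distribution (array medians within 0.000523), as the values show. How is not stated in the sources used here, and a transform close to log2 cannot be told apart. Folds and shares of the control level are therefore exact only for log2. Even then they are ratios of signals that include background, and a change in the transcript could be larger. The 2 deposited tables differed at 0 probes. They were kept as deposited. The background limit (6.68) is the mode of all values plus 1.645 SD of the values below it, estimated without detection p-values. Probes above it on at least 3 of 6 arrays (31511, 66.7%) were tested in limma 3.58.1 under R 4.3.3 (lmFit and eBayes), two-sided, without a block. The number of arrays limits the precision (median SE 0.0706). The named probes are the 8 listed, and further probes were named by the highest Pearson r with a member. The members, lists and motifs were chosen with earlier results of these data known. Lists of further pathway genes, cell line markers and the CDCP1 transcript had been planned and were not analysed here, for want of a probe annotation. Alternatives varied the filter, background treatment, normalization, variance model, array weights, block and single arrays. The numbers were not treated as pairs in the main test. Same-numbered arrays deviated from their group means with correlations of -0.27, -0.30 and 0.16. These correlations do not settle whether the samples were paired.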

Additional observations from a re-analysis of the deposited data

How the results depend on the processing

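None of the 98 values computed for the 7 tested members under the alternative settings changed sign, and 75 stayed on the same side of the threshold; 20 calls were lost and 3 gained. Leaving out 1 array could not reverse the 5 members whose groups do not overlap. The filters, the variance model and the replicate block leave every log2 change as it is, so they could not change a sign either. The count of called probes, 1657, was 2611 with array weights (CDCP1 replicate 1 weighted 0.381) and 1085 when experiment numbers entered as a replicate block. The 4 members called became 2 without a filter on dim probes, where 1340 of all 47231 probes were called. They also became 2 with an intensity trend and robust variances, where 1577 of the 31511 tested probes were called. ASNS lost its call without a filter (-0.30, adjusted p = 0.0597), with the trend and robust variances (-0.30, adjusted p = 0.0601), with normexp (-0.31, adjusted p = 0.0868) and with the replicate block (-0.30, adjusted p = 0.0506). CDKN1A lost it without a filter (-0.58, adjusted p = 0.145), with the stricter filter (-0.58, adjusted p = 0.0531) and with the trend and robust variances (-0.58, adjusted p = 0.126). TRIB3 was called after cyclic loess (0.32) and with array weights (0.35). Leaving out 1 array gave 613 to 2132 called probes, 1 to 4 members called, and log2 changes of 0.25 to 0.41 for TRIB3, 0.27 to 0.38 for ATF3, -0.36 to -0.25 for ASNS and -0.75 to -0.37 for CDKN1A. The filter sets how many probes are adjusted over and also alters the SE, and fewer arrays give fewer degrees of freedom. Why calls were lost or gained was not tested. The replicate block changed no other member's call, and the labels do not say whether its numbers pair the samples. Signal over background limits GDF15 and the second CDKN1A probe most. With normexp and the quantile normalization that followed it, the change of every tested member was larger in size. It was 0.40 against 0.34 for ATF3 and -0.14 against -0.10 for DDIT3. The gene lists were not run, nor was 1 probe per gene.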

Other observations

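Probes that followed the members most closely over the 6 arrays were found by Pearson's r, which in arrays of 2 groups mainly follows the difference between the groups. For TXNIP the closest was ILMN_2412624, with r = 0.9998 and a log2 change of -0.18, and 947 tested probes had an r above 0.9. For ATF3 it was ILMN_1800354, with r = 0.999 and a log2 change of 0.20, and 1044 probes had an r above 0.9. Neither probe is paired with a gene here.

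CDCP1 replicate 1 was the lowest CDCP1 array for members that fell (TXNIP, CDKN1A and ASNS) and also for TRIB3, where the lowest array is the one nearest to the controls. GFP replicate 3 was the highest control for 5 of the 8 probes.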
